A study of Danio rerio with 4 samples.

Results

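Endothelial tip cells were taken as the cells with an endothelial signal and joint expression of the sprouting markers esm1, apln and hlx1, and 5065 of the 43568 barcodes in the 4 libraries met this rule. Members were selected on their UMI counts of a few genes. A member had at least 200 detected genes, at most 35000 unique molecular identifiers (UMIs, each standing for 1 captured transcript), at least 1 UMI of the endothelial cadherin cdh5, and at least 3 UMIs of esm1, apln and hlx1 together with at least 2 of these 3 genes detected. Cells with 2 or more UMIs of the haemogenic genes runx1, gata2b and gfi1aa, or with any UMI of the progenitor gene myb, were left out. The miR-128 mutant gave 1218 members, the csnk1a1 g3′UTR mutant 887, the jag1b g3′UTR mutant 1118 and wild type (WT) 1842.

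Tip cells are the endothelial cells (ECs) that lead a growing vessel sprout. They extend filopodia towards vascular endothelial growth factor (VEGF), and through the Notch ligand Dll4 they hold their neighbours, the stalk cells, back from leading. In the zebrafish trunk, sprouts leave the dorsal aorta first to form the intersegmental vessels, and sprouts from the cardinal vein follow later. Esm1 is a secreted proteoglycan of sprouting endothelium, Apln (apelin) is a peptide ligand, and Hlx1 is a homeodomain factor found in intersegmental vessels.

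The libraries held GFP-positive cells sorted from pooled Tg(kdrl:GFP) zn1 zebrafish embryos at 26 hours post fertilization (hpf), in which the kdrl promoter drives GFP in endothelium, and the tissue was trunk with the aorta-gonad-mesonephros (AGM) region, where blood stem and progenitor cells arise. The 4 genotypes were miR-128 mutant (miR-128Δ/Δ, a microRNA loss), csnk1a1 g3′UTR and jag1b g3′UTR (genomic edits in the 3′UTRs of a casein kinase gene and of a Notch ligand gene), and WT, with 1 library of each on the 10x Genomics 3′ platform. The study asked how miR-128 and these targets shape the passage from endothelium to blood, so genotypes could be compared only as single libraries, with intervals for counting error, while tip cells could be compared with other ECs across the 4 libraries as replicates.

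The libraries totalled 99846696 UMIs in the miR-128 mutant, 80140720 in csnk1a1 g3′UTR, 69980329 in jag1b g3′UTR and 144258953 in WT. The matrices of the miR-128 mutant and WT carried Cell Ranger version 5.0.0 in their headers and those of both g3′UTR libraries 6.0.1, so genotype and processing version cannot be told apart between these pairs. Pairs of libraries shared 26 to 55 barcodes, 0.277 to 0.479% of the smaller library. No doublet caller was run here, and the limit of 35000 UMIs was the only guard.

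Members were deeper than the 28766 other ECs, which passed the same gates without the tip marker part. Tip cells had a median of 10967 UMIs in the miR-128 mutant, 9244 in csnk1a1 g3′UTR, 6681 in jag1b g3′UTR and 11847.5 in WT, against 9060, 7137, 5393 and 10080.5 UMIs in the other ECs of the same libraries. A deeper cell passes a marker rule more easily, so shares and the main contrast were also computed after every cell was thinned to 2500 UMIs. For the shares the rule was applied again after thinning. The thinned contrast kept the members chosen at full depth, so it does not remove the part of depth in their choice. Of tip cells 1.43 to 13.1% had over 20000 UMIs, against 0.276 to 4.42% of other ECs, and the median mitochondrial share was 0.933 to 1.57% in tip cells and 0.846 to 1.56% in other ECs.

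The marker values chose the members and are given as a description only. Esm1 was found in 99.7 to 99.9% of the members, apln in 52.5 to 61.7% and hlx1 in 67.8 to 70.5%, against 49.4 to 57.3%, 0.604 to 0.789% and 1.63 to 3.31% of other ECs. Esm1 at this depth was thus common beyond the members, and the second marker decided membership. The pair esm1 and hlx1 without apln made up 38.3% of the members in the miR-128 mutant, 40.8% in csnk1a1 g3′UTR, 47.5% in jag1b g3′UTR and 43.7% in WT. The pair esm1 and apln without hlx1 made up 30.2, 32.2, 29.96 and 29.5% in the same order, all 3 markers together 31.4, 26.6, 22.5 and 26.6%, and only 9 members lacked esm1. Members held a median of 18 marker UMIs in the miR-128 mutant, csnk1a1 g3′UTR and WT and of 10 in jag1b g3′UTR, the library with the shallowest cells.

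At the threshold, 323 members (6.38%) had exactly 3 marker UMIs and 3435 (67.8%) had 10 or more. Just outside it stood 289 other ECs with 2 marker UMIs over 2 genes and 8528 with at least 3 esm1 UMIs but neither of the other markers. Further barcodes passed the marker part but lacked cdh5 (93), had 2 or more haemogenic UMIs (36) or had a myb UMI (126), and these were not members.

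Barcodes of blood cells without cdh5 give the level at which marker UMIs appear outside endothelium. Among neutrophils (median 11952 to 24031.5 UMIs), hlx1 was found in 46.7 to 59.8% of barcodes, apln in 0.410 to 1.87% and esm1 in 2.67 to 6.54%. Among erythroid cells (median 9238 to 19932.5 UMIs), apln was found in 9.95 to 23.8% of barcodes and hlx1 in 0.0 to 1.05%. Hlx1 alone therefore did not mark endothelium in these libraries, and few blood barcodes reached the marker threshold, 1 to 7 of the neutrophils and 0 or 1 of the erythroid cells in a library.

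The label was checked with genes outside the rule. Genes known from sprouts went mostly but not all upwards: the chemokine receptors cxcr4a and cxcr4b, the VEGF receptor flt1, the filopodial actin-bundling gene fscn1a, the water channel aqp1a.1 and dll4 were higher in tip cells than in other ECs in every library, while the Vegfc receptor flt4 and the guidance receptor unc5b were lower (log2 fold changes of -0.24 and -1.27). Against arterial ECs, described further on, cxcr4a was lower, and cxcr4b, dll4 and flt1 did not pass. In that contrast fscn1a, aqp1a.1 and flt4 were higher in tip cells, by 0.58, 0.22 and 1.01 on the log2 scale. Venous and lymphatic genes were lower than in other ECs. Across 17563 tested genes, edgeR's quasi-likelihood test on UMIs summed per library and class, with the library as block and Benjamini-Hochberg adjustment, called 3785 higher (21.6%) and 4188 lower (23.8%) in tip cells at an adjusted p under 0.05. With a fold change past 2 as well, 817 genes were higher (4.65%) and 1070 lower (6.09%). Without the library as replicate block the test called 1166 higher and 1313 lower, and all of these were among the calls made with the block and in the same direction. The 4 libraries are of 4 genotypes, so the spread in this test covers genotype as well as preparation. Levels below are CPM, the UMIs of a gene scaled to the summed UMIs of its class, and are given in the order miR-128 mutant, csnk1a1 g3′UTR, jag1b g3′UTR, WT.

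Among the 10 largest rises in genes of at least 20 CPM, transcription factors led those with a gene name. Zic2b (LL0000039304), a zinc finger factor best known from neural plate and somite patterning, had 69.7, 89.2, 95.1 and 65.4 CPM in tip cells, against 3.88, 4.59, 7.84 and 4.08 CPM in other ECs (log2 fold change 3.99, adjusted p = 1.2e-07). Its paralogue zic2a had 42.2, 45.7, 49.3 and 39.2 CPM in tip cells, against 2.64, 3.29, 4.96 and 2.55 CPM in other ECs (log2 fold change 3.76, adjusted p = 1.9e-07). The homeodomain factor meis2b had 23.4, 27.2, 24.8 and 12.9 CPM in tip cells, against 0.945, 2.38, 2.29 and 1.14 CPM in other ECs (log2 fold change 3.73, adjusted p = 1.5e-06). For each of these factors the lowest tip cell value was several times the highest value in other ECs.

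Surface and secreted products followed. Pcolce2b, an enhancer of procollagen processing, had 90.6, 57.0, 39.9 and 72.3 CPM in tip cells, against 5.85, 4.95, 3.72 and 5.50 CPM in other ECs (log2 fold change 3.67, adjusted p = 7.3e-08). The tetraspanin cd81b had 179, 106, 69.7 and 114 CPM in tip cells, against 20.3, 9.91, 6.26 and 15.7 CPM in other ECs (log2 fold change 3.19). The beta-adrenergic receptor adrb3a had 47.2, 42.1, 31.3 and 39.1 CPM in tip cells, against 7.28, 4.55, 4.85 and 5.07 CPM in other ECs (log2 fold change 2.87), and the chemokine gene ccl38.1 differed by 2.98 on the log2 scale. The remaining 3 of the 10 largest rises were in genes with clone or locus names only. The 10 genes were picked for the size of their rise and its direction in 4 of 4 libraries, so the gap between the classes is not independent of that choice. The means of the 4 per-library log2 ratios lay close to the fitted values, for example 4.01 ± 0.30 (SD, n = 4) for zic2b and 3.65 ± 0.23 for pcolce2b.

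**Figure D1:**
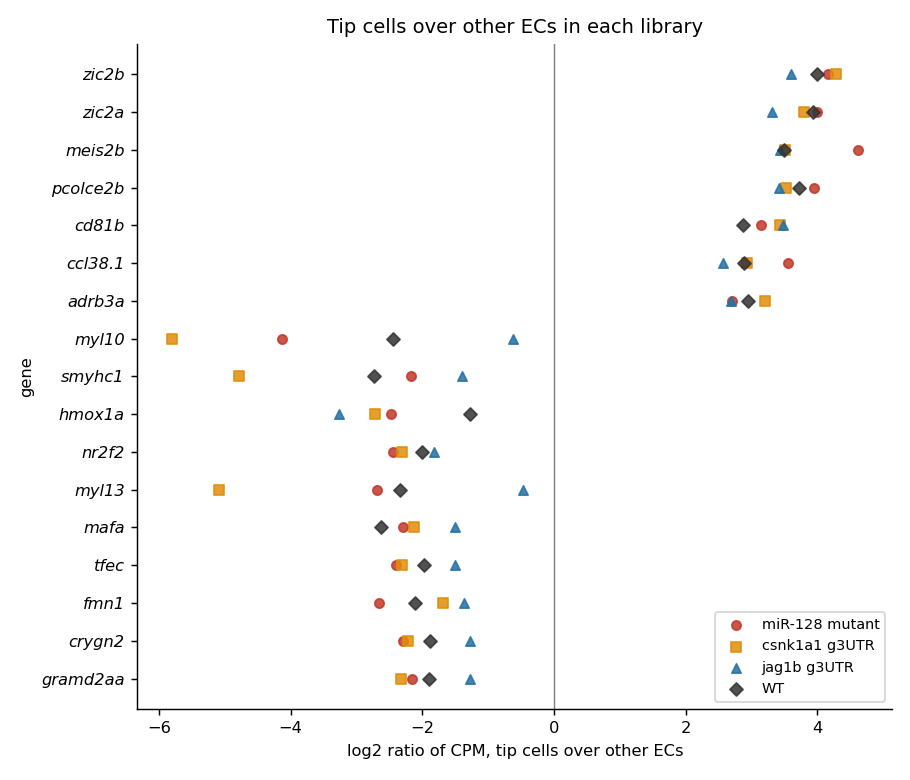
Tip cells over other ECs, as the log2 ratio of summed CPM in each library, for the called genes with the largest differences (clone and locus names left out). Each point is 1 library. The 4 points of zic2b, zic2a and pcolce2b lie close together, while those of myl10 and myl13 spread widely, with their smallest differences in jag1b g3′UTR, where tip cells had 82.2 and 102 CPM.

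The largest falls were led by a venous regulator and by genes of other cell types. Nr2f2, the nuclear receptor that specifies vein identity, had 17.6, 25.7, 34.6 and 21.8 CPM in tip cells, against 96.2, 127, 122 and 87.5 CPM in other ECs (log2 fold change -2.14, adjusted p = 9.1e-07). The bZIP factor mafa had 5.83, 6.44, 16.7 and 4.14 CPM in tip cells, against 28.7, 28.5, 47.5 and 25.8 CPM in other ECs (log2 fold change -2.14). Tfec, a factor of the Mitf family, had 37.6, 33.8, 70.8 and 43.9 CPM in tip cells, against 198, 168, 201 and 173 CPM in other ECs (log2 fold change -2.05). These 3 factors were picked by the size of their fall and its direction in 4 of 4 libraries, so the gap between the classes is not independent of that choice. Hmox1a (haem oxygenase), fmn1 (a formin), crygn2 (a crystallin) and gramd2aa were lower too, with log2 fold changes of -2.19, -1.98, -1.95 and -1.93.

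The muscle genes myl10, smyhc1 and myl13 completed the rule's list and rest on few cells. Myl10 had 0.823, 1.61, 82.2 and 5.53 CPM in tip cells, against 15.07, 93.2, 126 and 30.4 CPM in other ECs (log2 fold change -2.34, adjusted p = 0.0081), and smyhc1 and myl13 fell by 2.27 and 2.14 on the log2 scale. In jag1b g3′UTR tip cells 1 cell held 693 of the 710 myl10 UMIs, 858 of the 882 myl13 UMIs and 136 of the 148 smyhc1 UMIs. Once cells with 3 or more UMIs of another cell type's marker list were left out, myl13 stood at 0.28 on the log2 scale (adjusted p = 0.50), and without the block all 3 calls were lost. No such dependence was seen for the other named genes, which kept direction and call in all the alternatives that could be computed for them.

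Marker lists of other cell types give the extent of foreign RNA. The 7 erythroid markers summed to 299, 842, 932 and 182 CPM in tip cells, against 369, 1916, 2994 and 482 CPM in other ECs, and 6 of the 7 were lower in tip cells. The 5 neutrophil markers summed to 191, 410, 185 and 139 CPM in tip cells, against 264, 570, 684 and 101 CPM in other ECs, with none called. Muscle markers summed to 211, 261, 479 and 55.6 CPM in tip cells, against 203, 343, 692 and 196 CPM in other ECs. Tip cells therefore carried no more of these blood and muscle lists than other ECs except in single libraries. The part of foreign RNA in the gene differences was not tested beyond leaving out the cells described. Against arterial ECs, described further on, 1 of 5 neutrophil markers, cpa5, was higher in tip cells (3.02) and 4 did not pass. Among these lyz had 156, 306, 134 and 113 CPM in tip cells, against 36.3, 26.5, 371 and 16.1 CPM in arterial ECs.

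In the remaining lists a few members went the other way. Macrophage markers reached 0.0 to 30.5 CPM in tip cells, against 8.51 to 42.2 CPM in other ECs, and all 5 were at 0 in jag1b g3′UTR tip cells. Neural markers summed to 521 to 552 CPM in tip cells, against 402 to 472 CPM in other ECs. This sum moved with 1 gene, the tubulin tubb5, with 222, 215, 168 and 206 CPM in tip cells, against 51.6, 65.2, 50.2 and 61.1 CPM in other ECs (log2 fold change 1.82), while sox3 was lower at -1.70 and elavl3 and sox2 were not called. Among mesenchymal markers tcf15, a bHLH factor of the somites, was higher (log2 fold change 2.47) and 3 of 6 were lower, and among neural crest and pigment markers mitfa was higher (1.65). Of the epidermal, notochord and pronephric markers none was higher, with 3 of 5, 0 of 4 and 2 of 3 lower. Of 12 dissociation and heat stress genes 4 were lower, among them the chaperone hspa5 (-0.82), and fosb was higher (0.26).

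VEGF receptor genes held both directions. Of 8 VEGF receptor genes 4 were higher and 4 lower in tip cells. Flt1, a decoy receptor for Vegfa, had 196, 178, 218 and 206 CPM in tip cells, against 48.1, 52.0, 63.4 and 59.9 CPM in other ECs (log2 fold change 1.84, adjusted p = 1.4e-07). The co-receptor nrp1b rose by 1.11 on the log2 scale and the signalling receptor kdr by 0.30. The co-receptors nrp2a and nrp2b, partners of the Vegfc receptor, fell by 1.82 and 1.84. Nrp2a had 6.85, 14.0, 26.9 and 13.7 CPM in tip cells, against 31.9, 57.6, 76.0 and 43.2 CPM in other ECs. Flt4, the Vegfc receptor itself, was lower by a small amount (-0.24), and kdrl, whose promoter drives the sorted GFP, differed by -0.09 (adjusted p = 0.046). The kdrl call was lost in 10 alternatives and kept in 3, and the WT ratio alone was above 1. In the contrast with arterial ECs, described further on, 3 of the 8 genes were higher in tip cells and 2 lower. The higher genes were nrp2a, nrp2b and flt4 (2.305, 2.16 and 1.01), and kdrl and nrp1a were lower (-0.83 and -0.90).

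The VEGF ligands were higher where called, in 3 of 4 tested. Vegfaa and vegfc each rose by 0.91 on the log2 scale, and vegfc had 56.8, 46.8, 36.2 and 59.2 CPM in tip cells, against 32.2, 18.6, 22.9 and 32.7 CPM in other ECs. Pgfb, a placental growth factor gene, had 1.92, 2.68, 1.97 and 3.38 CPM in tip cells, against 0.326, 0.905, 0.385 and 0.473 CPM in other ECs (log2 fold change 2.34). The groups did not overlap for vegfc or pgfb, and how many of all tested genes share this was not counted.

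Among apelin, angiopoietin, adrenomedullin and PDGF genes 5 of 14 were higher and 6 lower. Angpt2a, a ligand that loosens Tie2 signalling, had 3.08, 2.47, 1.27 and 2.996 CPM in tip cells, against 0.147, 0.309, 0.635 and 0.219 CPM in other ECs (log2 fold change 3.09, adjusted p = 0.00052). Its receptor tek (Tie2) had 61.6, 42.5, 67.6 and 77.9 CPM in tip cells, against 169, 135, 157 and 180 CPM in other ECs (log2 fold change -1.38). The apelin receptors parted, with aplnra at 222, 182, 226 and 261 CPM in tip cells, against 515, 423, 365 and 605 CPM in other ECs (log2 fold change -1.09), and aplnrb at 371, 297, 352 and 323 CPM in tip cells, against 178, 160, 202 and 162 CPM in other ECs (0.93). The groups did not overlap for either receptor, and the share of all tested genes without overlap was not counted. Adma (adrenomedullin) and the PDGF ligand genes pdgfba and pdgfbb were higher by 1.33, 0.65 and 0.95, and pdgfaa was lower by 1.29. In the contrast with arterial ECs, described further on, 3 of 12 genes of this list were higher in tip cells and 3 lower. There pdgfaa and aplnrb were higher (1.93 and 0.42) and pdgfbb was lower (-0.67). Adma, pdgfba and aplnra did not pass (-0.30, 0.07 and -0.18).

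**Figure D2:**
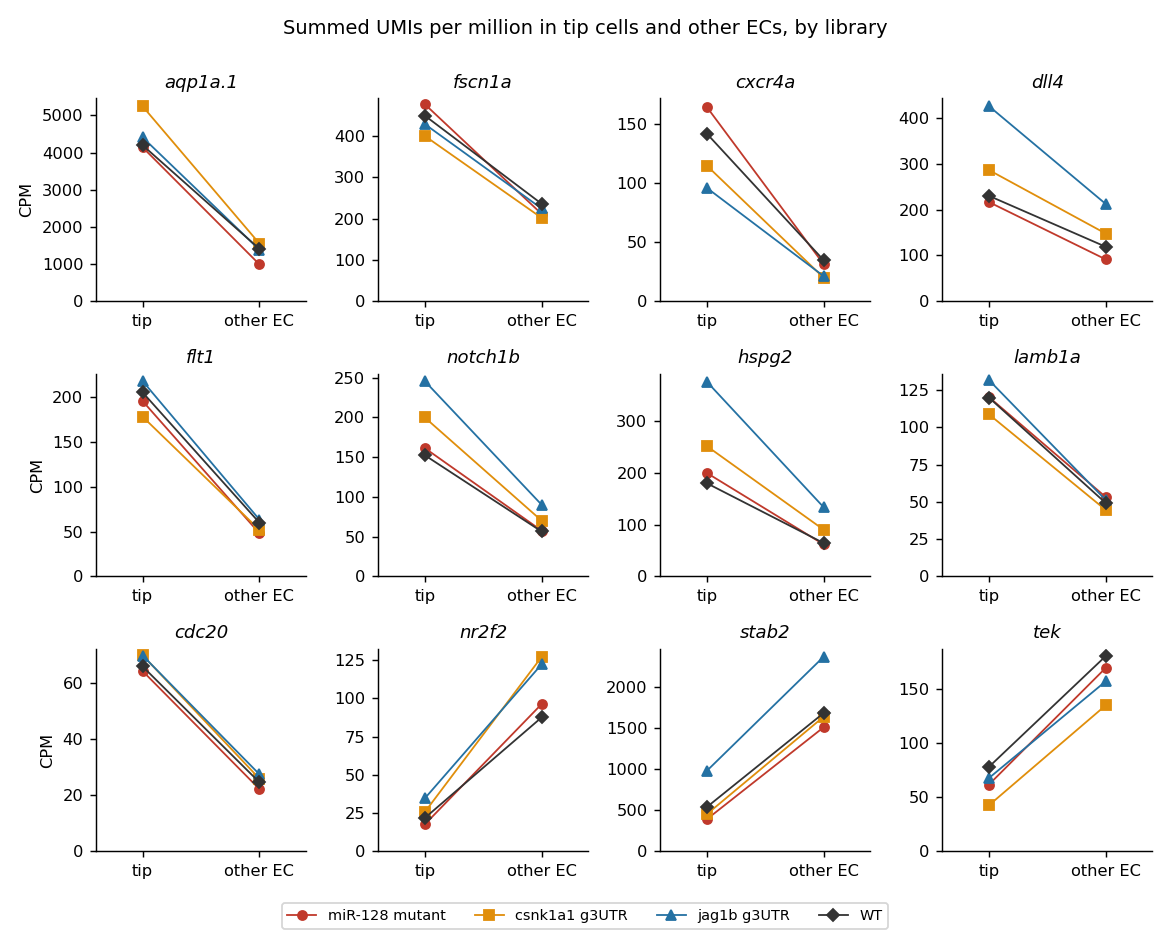
Summed CPM in tip cells (left) and other ECs (right) for single genes, with 1 line per library joining the 2 classes and each axis starting at 0. Aqp1a.1, cxcr4a, flt1 and dll4 were higher in tip cells in each of the 4 libraries, and stab2 and nr2f2 were lower in each.

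Notch ligand and receptor genes were mostly higher than in other ECs, but not than in arterial ECs. Of 13 ligand and receptor genes 8 were higher and 2 lower, with a median log2 fold change of 0.76, against -0.02 over all tested genes. Against arterial ECs, described further on, 0 of 11 were higher and 6 lower in tip cells, with a median of -0.33. Dll4, the ligand by which tip cells restrain their neighbours, had 216, 286, 426 and 230 CPM in tip cells, against 91.5, 148, 212 and 119 CPM in other ECs (log2 fold change 1.03, adjusted p = 1.8e-06). Within each library tip cells were higher, although the csnk1a1 and jag1b g3′UTR libraries stood above the others in both classes. Notch1b had 161, 200, 246 and 152 CPM in tip cells, against 57.5, 70.16, 90.2 and 56.5 CPM in other ECs (1.46), and jag2a, jag2b, notch2 and notch3 rose by 1.82, 1.104, 1.25 and 0.76.

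The Notch ligand jag1b, whose 3′UTR was edited in 1 library, was lower in tip cells, with 4.59, 2.15, 3.36 and 4.05 CPM, against 9.82, 6.80, 7.07 and 7.23 CPM in other ECs (log2 fold change -1.10, adjusted p = 0.00012). Jagged ligands can oppose Dll4 at the sprout. Csnk1a1 did not pass the test, with 370, 361, 375 and 366 CPM in tip cells, against 367, 364, 359 and 346 CPM in other ECs (0.03, adjusted p = 0.47). Of the genes that host miR-128, arpp21 was lower by 0.96 and r3hdm1 was not called (0.15). Notch targets were mixed, with 3 of 10 higher and 3 lower. The arterial target hey2 had 59.0, 55.5, 78.2 and 56.0 CPM in tip cells, against 23.7, 30.7, 39.6 and 23.7 CPM in other ECs (1.096), while lfng, a glycosyltransferase that tunes Notch receptors, had 71.9, 77.8, 128 and 96.3 CPM in tip cells, against 206, 183, 226 and 195 CPM in other ECs (-1.15).

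Arterial and venous genes went opposite ways. Of 13 arterial genes 11 were higher in tip cells and only unc5b, a netrin receptor, was lower (-1.27). Tbx20, an aortic T-box factor, had 38.2, 46.8, 51.9 and 40.5 CPM in tip cells, against 11.2, 14.0, 20.9 and 13.0 CPM in other ECs (1.61), and the tight junction gene cldn5b had 1692, 1536, 1118 and 1730 CPM, against 920, 770, 584 and 926 CPM in other ECs (0.92). Cxcr4a, a receptor of the chemokine Cxcl12 that is switched off where blood flows, had 164, 115, 95.8 and 142 CPM in tip cells, against 31.3, 19.9, 21.3 and 34.7 CPM in other ECs (2.27). Its ligand genes were lower than in other ECs instead, cxcl12b by 1.87 and cxcl12a by 0.92. Relative to arterial ECs, described further on, cxcl12b was higher in tip cells (2.88), cxcl12a did not pass (0.05) and cxcr4a was lower (-0.42).

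Of 10 venous and lymphatic genes 9 were lower and ephb4a was not called. Stab2, a scavenger receptor for hyaluronan, had 392.1, 453, 981 and 540 CPM in tip cells, against 1512, 1640, 2371 and 1685 CPM in other ECs (log2 fold change -1.69, adjusted p = 2.3e-06). Lyve1b, another hyaluronan receptor, had 81.0, 92.3, 137 and 147 CPM in tip cells, against 377, 430, 362 and 468 CPM in other ECs (-1.88). Mrc1a, dab2 and prox1a had log2 fold changes of -1.70, -1.596 and -1.54. Without the block 7 of the 13 arterial genes were still called higher and 7 of the 10 venous genes lower.

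Motility genes were led by aqp1a.1, a water channel of migrating tip cells, with 4141, 5243, 4409 and 4198 CPM in tip cells, against 991, 1552, 1386 and 1409 CPM in other ECs (log2 fold change 1.76, adjusted p = 5.8e-07). Arterial ECs, described further on, had 2597, 4439, 3971 and 3600 CPM of aqp1a.1, a log2 fold change of only 0.22 (adjusted p = 0.047). Fscn1a, which bundles actin in filopodia, had 477, 400, 429 and 449 CPM in tip cells, against 211, 202, 224 and 236 CPM in other ECs (0.999). Over all 18 aquaporin and cytoskeleton genes 10 were higher and 3 lower, and most differences were small, such as 0.18 for actb2 and 0.17 for tmsb4x. The non-muscle myosin gene myh9a was lower by 0.60.

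The basement membrane list held both directions, with 8 of 20 genes higher, 10 lower and a median of -0.28. Hspg2 (perlecan) had 200, 252, 377 and 180 CPM in tip cells, against 61.9, 90.4, 134 and 64.6 CPM in other ECs (1.53), lamb1a had 120, 109, 132 and 120 CPM, against 53.2, 44.6, 51.3 and 49.2 CPM in other ECs (1.27), and col4a1 rose by 0.93. The lower genes included col18a1a (-1.14), the protease inhibitor timp2b (-0.94) and the matricellular gene sparc (-0.69). Structural subunits of the vascular basement membrane thus stood on both sides of their level in other ECs. Relative to arterial ECs, described further on, 1 of 19 genes was higher in tip cells and 6 were lower. There lamb1a and col4a1 were lower (-0.26 and -0.31), and hspg2 did not pass (0.30).

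Axon guidance genes that also steer vessels were higher in 7 of 16 and lower in 5. Sema6a had 34.1, 34.0, 39.1 and 31.8 CPM in tip cells, against 12.3, 9.72, 12.4 and 11.9 CPM in other ECs (1.56), and sema3fb, sema3ga and sema7a rose by 1.24, 1.05 and 1.04. Slit3, a Robo ligand, had 47.4, 58.9, 106 and 55.9 CPM in tip cells, against 167, 178, 228 and 153 CPM in other ECs (-1.50). The endothelial receptor robo4 rose by 0.70, and the semaphorin receptor plxnd1 stood at -0.25 (adjusted p = 0.028), a call kept in 6 alternatives and lost in 7.

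Of 18 BMP and TGF-beta genes 8 were higher, among them bmp2b (0.97) and smad6a (0.79), and 3 lower, with the inhibitor smad7 at -0.91. Of 16 pan-endothelial genes 9 were lower and 3 higher, with changes of at most 0.75 on the log2 scale. Glycolysis genes had a median of 0.02 (5 of 13 higher, 3 lower), ETS and SoxF factors 3 higher and 3 lower of 9, and junction genes 4 and 4 of 11. Of 7 chemokine axis genes 3 were higher and 2 lower, of 4 flow-responsive Klf genes 2 were higher (klf2b by 0.80), and of 6 Wnt targets axin2 was higher (0.83) and tcf7 and ccnd1 were lower. Each of these lists held members that did not pass the test. Relative to arterial ECs, described further on, 3 of 5 Wnt targets were higher in tip cells and 0 lower. The higher genes were lef1, ccnd1 and nkd1 (1.02, 0.70 and 0.61). Of 17 BMP and TGF-beta genes 1 was higher there and 3 were lower, and bmp2b did not pass (-1.14).

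**Figure D3:**
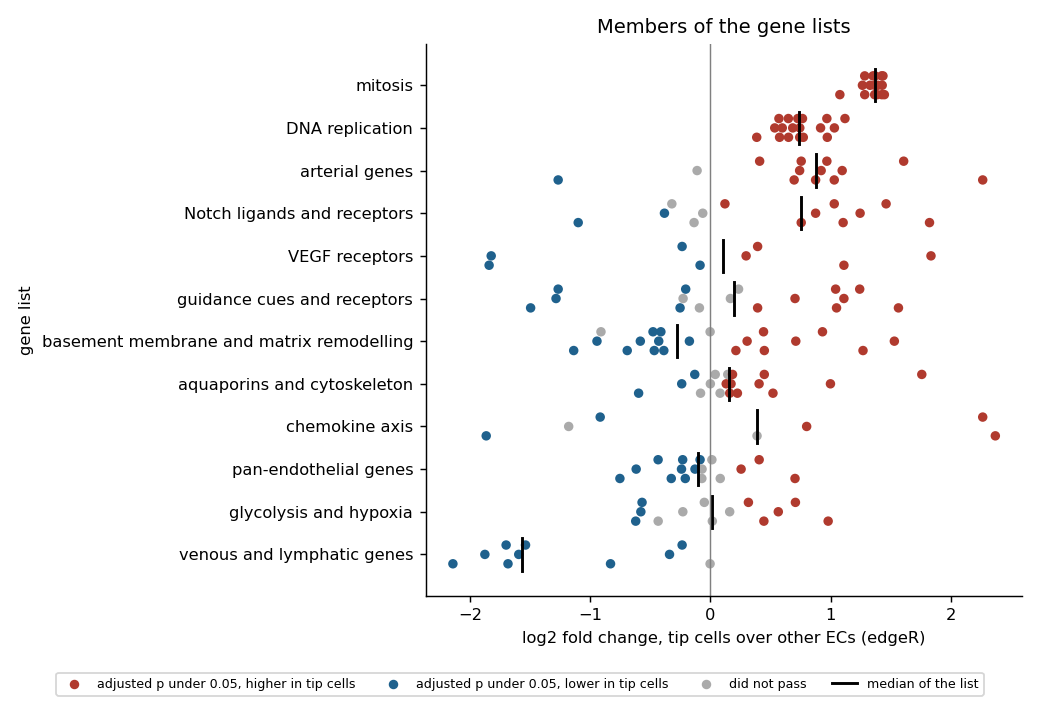
Log2 fold change of tip cells over other ECs for every tested member of 12 gene lists, with 1 point per gene, coloured by whether it passed the test and in which direction, and a black bar at the list median. All mitosis and DNA replication genes lie right of 0 (medians 1.37 and 0.73), and the venous and lymphatic genes lie at or left of 0 (median -1.57).

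Cell cycle genes rose together. All 16 mitosis genes were higher in tip cells, between 1.08 (bub1) and 1.45 (cenpf) on the log2 scale. Cdc20, an activator of the anaphase-promoting complex, had 64.2, 69.8, 69.7 and 65.8 CPM in tip cells, against 22.2, 25.9, 27.4 and 24.6 CPM in other ECs (log2 fold change 1.43, adjusted p = 3.6e-07). Mki67, a coat protein of mitotic chromosomes, had 156, 232, 313 and 173 CPM in tip cells, against 49.0, 101, 140 and 64.7 CPM in other ECs (1.35). For cdc20 the 4 tip cell values lay within a narrow band well above those of other ECs, and for mki67 both g3′UTR libraries stood above the others in either class.

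All 18 DNA replication genes were higher too, by smaller amounts. Pcna, the sliding clamp of replication, had 364, 301, 301 and 391 CPM in tip cells, against 146, 193, 180 and 198 CPM in other ECs (log2 fold change 0.92, adjusted p = 6.2e-05). Rrm2 and slbp, which supply nucleotides and histones in S phase, rose by 1.12 and 1.03, and mcm2 by 0.39. With counts thinned to 2500 UMIs per cell, and members still those chosen at full depth, all 16 and all 18 were still called. Without the block all 16 mitosis genes and 15 replication genes were called (dut, gins2 and mcm2 lost theirs), and with cells carrying other cell types' markers left out 15 mitosis genes and all 18 replication genes. That last setting kept only 262, 139, 315 and 320 tip cells. Its marker lists include nova2, at 297 to 360 CPM in tip cells and 244 to 319 CPM in arterial ECs, so it is not specific to foreign cells. Members were deeper than other ECs, and the part of depth in their choice was not tested in this contrast. The part of RNA content per cell was not tested beyond the thinning of counts.

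Tip cells were then set against the classes that sprouts grow from or beside. Arterial ECs (1259) were other ECs with at least 3 UMIs of efnb2a, cldn5b and tbx20, at least 2 of them detected, and under 2 UMIs of stab2, lyve1b and mrc1a, and venous ECs (5383) were chosen with these gene sets exchanged. These 6 genes were used for the choice and are not counted here. Arterial ECs were shallower, with median UMIs of 6798, 5765, 4331 and 7916, and venous ECs had 7453, 5625.5, 4405.5 and 7052.

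Against arterial ECs, of 12377 tested genes 951 were higher (7.68%) and 879 lower (7.1%) in tip cells. Without the block 127 were higher and 81 lower, and without the WT library 249 and 313. Of 9 arterial genes 5 were lower in tip cells and none higher. Arterial ECs were chosen for high efnb2a, cldn5b and tbx20, and genes that go with these stand high there by the choice, whose part was not tested. Gja5a, an aortic connexin, had 25.3, 26.9, 30.1 and 20.6 CPM in tip cells, against 49.7, 44.2, 43.8 and 38.04 CPM in arterial ECs (log2 fold change -0.89), and notch3 and cxcr4a were lower by 0.64 and 0.42. Hey2, dll4 and flt1 did not pass, at -0.12, 0.09 and 0.16, with adjusted p of 0.53, 0.58 and 0.25.

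Signal genes differed too. Vegfc had 56.8, 46.8, 36.2 and 59.2 CPM in tip cells, against 154, 97.8, 104 and 154 CPM in arterial ECs (-1.45, adjusted p = 2.7e-05), although it was higher in tip cells than in ECs at large. Jag1b had 4.59, 2.15, 3.36 and 4.05 CPM in tip cells, against 20.9, 3.53, 5.94 and 15.7 CPM in arterial ECs (-1.80), and aqp8a.1 was lower by 0.72. The jag1b gap was widest in the miR-128 mutant and WT, at log2 ratios of -2.19 and -1.97, against -0.80 in csnk1a1 g3′UTR and -0.89 in jag1b g3′UTR. Tip cells held only 20 and 29 jag1b UMIs in the 2 g3′UTR libraries, whose arterial classes were smaller still in summed UMIs. The jag1b ratios to WT within tip cells are given below with their intervals.

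Genes higher in tip cells than in arterial ECs included fscn1a, with 477, 400, 429 and 449 CPM in tip cells, against 221, 269, 313 and 300 CPM in arterial ECs (0.58), and the semaphorin sema3ga, with 26.3, 22.4, 39.5 and 20.5 CPM, against 7.51, 16.5, 11.9 and 7.87 CPM in arterial ECs (1.22). Of the cell cycle genes, 14 of 16 for mitosis and 10 of 18 for replication were higher, with cdc20 at 0.87 and mki67 at 0.97. Without the WT library 3 mitosis genes and no replication gene were called, with list medians of 0.80 and 0.45, and without the block the counts were again 3 and 0, with medians of 0.86 and 0.57. The DESeq2 test on all 4 libraries called 13 and 7. Venous genes were higher in 5 of 7, for example nr2f2 with 17.6, 25.7, 34.6 and 21.8 CPM in tip cells, against 2.09, 6.48, 8.17 and 1.31 CPM in arterial ECs (2.57). Arterial ECs were chosen for low stab2, lyve1b and mrc1a and were shallower, and the part of this choice in the venous gene difference was not tested.

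Against venous ECs, of 13711 tested genes 3547 were higher (25.9%) and 3377 lower (24.6%), and without the block 1516 and 1638. Among the listed genes the gap was widest in cxcr4a, with 164, 115, 95.8 and 142 CPM in tip cells, against 1.501, 1.71, 2.13 and 2.33 CPM in venous ECs (log2 fold change 6.004, adjusted p = 4.1e-09), and in vegfc, with 0.514 to 2.33 CPM in venous ECs (4.85). Flt1, notch1b and aqp1a.1 rose by 2.63, 2.41 and 2.38. In this contrast 8 of 9 arterial genes and 9 of 11 Notch ligand and receptor genes were higher, and all 16 mitosis genes (median 1.99) and all 18 replication genes (median 0.70). Of 7 venous genes 6 were lower, with nr2f2 at 102, 141, 140 and 91.4 CPM in venous ECs (-2.25), and tek fell by 1.54. Venous ECs were chosen for high stab2, lyve1b and mrc1a and for low efnb2a, cldn5b and tbx20, so the direction of arterial and venous genes in this contrast is largely set by the choice and is given as a description.

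Summed levels of several genes changed with the number of marker UMIs per cell. Whether single cells form a gradient or a mixture was not tested. In the following description ECs are ordered by their marker UMIs, and the values are means of the 4 libraries, with no test, since marker level and depth move together: the median depth was 8874.5, 8145, 5335.5 and 10815 UMIs in members with 3 or 4 marker UMIs (580 cells) and 12696, 11412.5, 10379 and 13418.5 in members with 20 or more (2037 cells). Aqp1a.1 averaged 811 CPM in ECs without a marker UMI, 2002 in ECs with esm1 alone, 2192 in members with 3 or 4 marker UMIs, 3929 with 5 to 19 and 5535 with 20 or more. Zic2b averaged 2.10, 9.19, 20.6, 55.8 and 116 CPM over the same bins, and pcolce2b 1.59, 10.2, 9.68, 41.5 and 93.8 CPM. Stab2 ran the other way, at 2053, 1473, 1428, 775 and 223 CPM, as did nr2f2 at 144, 68.7, 66.4, 31.1 and 10.4 CPM.

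Members near the threshold thus stood close to ECs with esm1 alone for pcolce2b, stab2 and nr2f2. Of the cell cycle genes, cdc20 averaged 22.5, 29.6, 31.4, 46.2 and 94.8 CPM and pcna 130, 241, 330, 339 and 343 CPM. Kdrl moved little over the 5 bins, between 3309 and 3888 CPM.

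**Figure D4:**
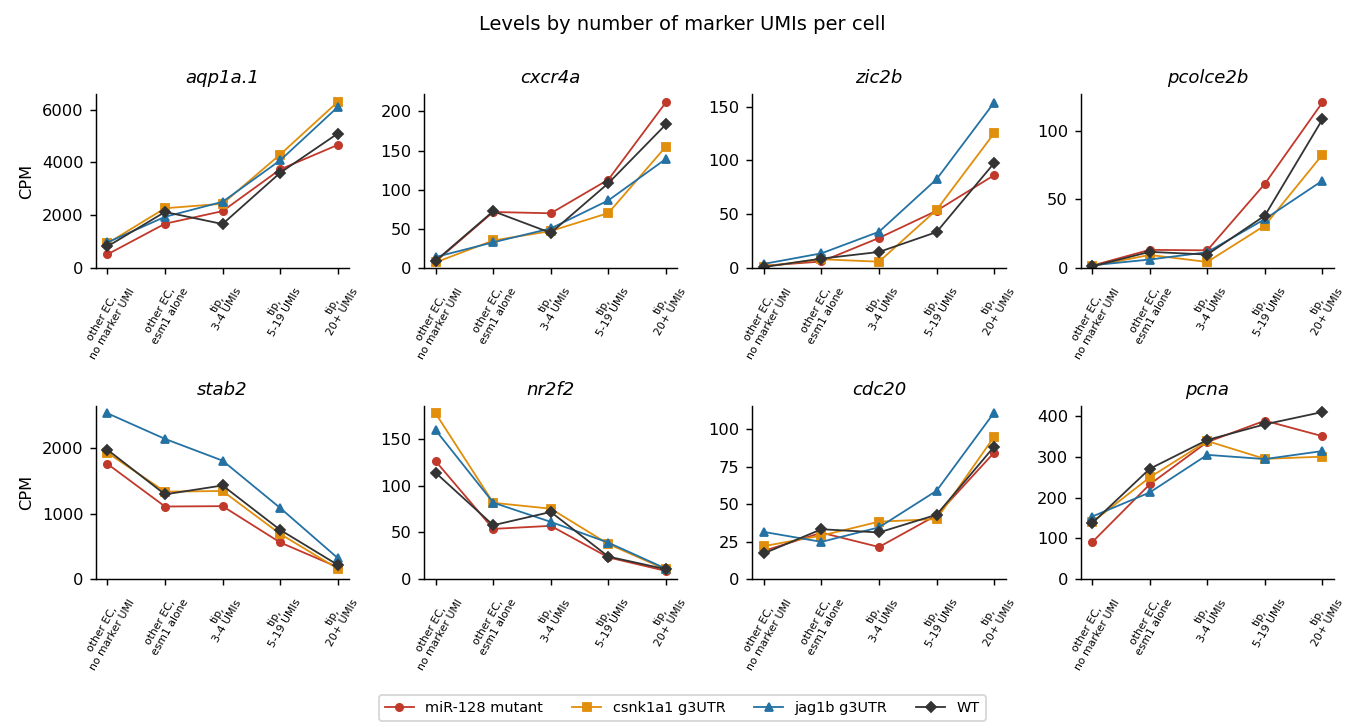
Mean CPM by number of marker UMIs per cell, from ECs with no marker UMI at the left to members with 20 or more at the right, with 1 line per library. Averaged over the 4 libraries, aqp1a.1 and zic2b climb to 5535 and 116 CPM, stab2 and nr2f2 descend to 223 and 10.4 CPM, and pcna is level over the 3 bins of members at 330 to 343 CPM.

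When members were thinned to 2500 UMIs before their marker UMIs were counted, the same order held for aqp1a.1, zic2b, stab2 and cdc20. Members with 0 or 1, with 2 to 4 and with 5 or more marker UMIs then averaged 2981, 4082 and 5546 CPM of aqp1a.1, 32.1, 54.9 and 134 CPM of zic2b, 1169, 733 and 205 CPM of stab2 and 36.4, 56.1 and 74.9 CPM of cdc20. For pcna they averaged 341, 328 and 297 CPM. At this fixed depth cdc20 showed no larger step at the top, and pcna was lowest in members with 5 or more marker UMIs.

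Members with an apln UMI are set beside those without one as a description, since by the rule all members without apln carry esm1 and hlx1. Members with apln averaged 94.0 CPM of pcolce2b, 104 of zic2b and 32.2 of meis2b, against 22.1, 45.1 and 7.08 CPM in members without apln, and 315 CPM of stab2, against 971 CPM. The arterial genes tbx20 and efnb2a averaged 40.5 and 141 CPM with apln, against 50.03 and 170 CPM without. These values compare marker pairs made by the rule.

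The share of tip cells among ECs was compared between genotypes at equal depth. After thinning to 2500 UMIs, with the rule applied afterwards, 489 of 6705 ECs of the miR-128 mutant were tip cells, or 7.29% (95% exact Clopper-Pearson interval 6.68 to 7.94). The csnk1a1 g3′UTR share was 6.59% (5.98 to 7.24), the jag1b g3′UTR share 6.66% (6.10 to 7.25) and the WT share 7.19% (6.65 to 7.75). Relative to WT, the share was 1.01 times as high in the miR-128 mutant (interval 0.900 to 1.14), 0.916 times in csnk1a1 g3′UTR (0.807 to 1.04) and 0.926 times in jag1b g3′UTR (0.822 to 1.04). No difference from WT was detectable in these libraries, and the intervals, which cover counting error only, reach down to ratios of 0.807 in csnk1a1 g3′UTR and 0.822 in jag1b g3′UTR. Thinning left out 295, 491, 1622 and 516 ECs that were shallower. The endothelial gates were applied again to the thinned counts, so deeper ECs left without a cdh5 UMI dropped out. Cells with haemogenic or myb UMIs at full depth could enter. This gave 6705, 6133, 7478 and 8723 ECs, against 7693, 6847, 9087 and 10204 at full depth. The part of these gates in the ratios between genotypes was not tested.

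Without thinning the shares were 15.8, 13.0 and 12.3% in the mutants in the same order and 18.1% in WT, with ratios of 0.877 (0.815 to 0.943), 0.718 (0.662 to 0.778) and 0.682 (0.632 to 0.735). This ranking followed the median depth of the libraries. With at least 5 marker UMIs after thinning, the jag1b g3′UTR ratio was 0.806 (0.700 to 0.929), the only thinned ratio whose interval did not include 1.

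**Figure D5:**
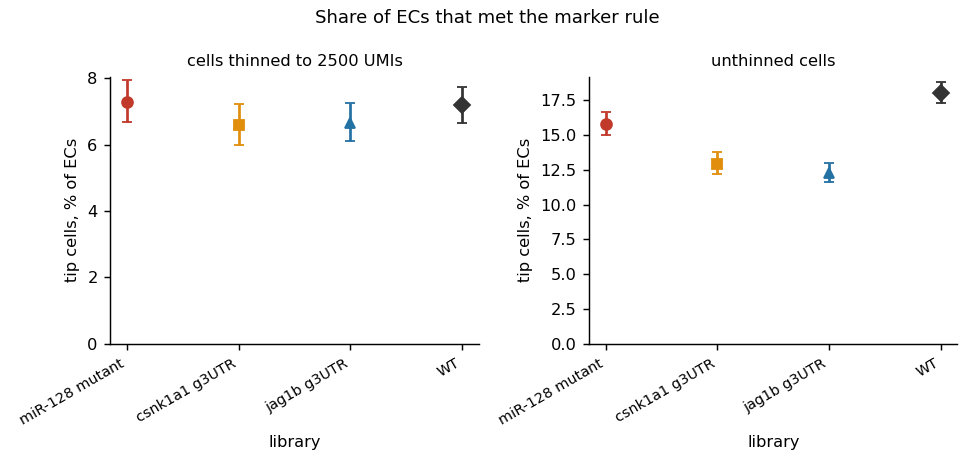
Tip cells as a percentage of ECs in each library, thinned to 2500 UMIs and unthinned, with 95% exact binomial intervals as bars. The 4 thinned shares lie between 6.59 and 7.29%, with overlapping intervals, and the unthinned shares between 12.3 and 18.1%.

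Within tip cells, UMIs were summed per library and each mutant was set against WT as a ratio of CPM with an exact conditional binomial interval. Genes with at least 60 UMIs in both libraries together were compared, and a gene was called where the ratio was past 2-fold and its interval did not include 1. The miR-128 mutant had 175 genes higher (1.43% of 12232) and 253 lower (2.07%). Csnk1a1 g3′UTR had 385 higher (3.21% of 11980) and 129 lower (1.08%), and jag1b g3′UTR 1498 higher (12.3% of 12134) and 191 lower (1.57%). Csnk1a1 g3′UTR over jag1b g3′UTR gave 110 higher (1.01% of 10844) and 435 lower (4.01%).

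The excess of higher genes in both g3′UTR libraries went with a shift of all genes, since the median log2 ratio to WT was -0.01 in the miR-128 mutant, 0.12 in csnk1a1 g3′UTR and 0.26 in jag1b g3′UTR. With median-of-ratios scaling jag1b g3′UTR had 635 genes higher and 590 lower, and csnk1a1 g3′UTR 274 and 229. The median-of-ratios value is given beside the ratio for several genes of these libraries, and it was lower than the CPM ratio to WT in each of them. The shift also runs along the processing versions named above.

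The edited genes themselves gave these values in tip cells. Csnk1a1 had 361 CPM in csnk1a1 g3′UTR and 366 CPM in WT, a ratio of 0.986 (0.947 to 1.03), or 0.879 with median-of-ratios scaling. The csnk1a1 ratio was 1.01 in the miR-128 mutant and 1.02 in jag1b g3′UTR (0.794 with that scaling). Jag1b had 3.36 CPM in jag1b g3′UTR and 4.05 CPM in WT, a ratio of 0.83 (0.527 to 1.27) from 29 and 96 UMIs, or 0.643 with median-of-ratios scaling. In the miR-128 mutant the jag1b ratio was 1.13 (0.817 to 1.56), and in csnk1a1 g3′UTR it was 0.530 (0.310 to 0.864) from 20 UMIs, with 0.941 (0.818 to 1.08) in other ECs. Neither edited gene was detectably higher in tip cells of its own library than in WT. The edits lie in 3′UTRs, the end from which these libraries are counted, and whether they alter the counting was not tested. Arpp21, a host of miR-128, had a ratio of 0.596 (0.429 to 0.816) in the miR-128 mutant, and r3hdm1 0.993 (0.817 to 1.20).

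In the miR-128 mutant the called genes with the highest ratios were spread over many cells. Prss59.1, a trypsin-like protease, had 13.8 CPM in the miR-128 mutant (202 UMIs in 163 cells) and 0.253 CPM in WT (6 UMIs), a ratio of 54.7 (24.7 to 151). Doc2d, a calcium sensor of exocytosis, had 94 UMIs in 86 cells, against 4 in WT, a ratio of 38.2 (14.4 to 143). In other ECs the ratios were 52.3 and 104, so both differences were present outside tip cells too. MFAP4 (1 of many) had a ratio of 25.1, but 271 of its 356 UMIs lay in 1 cell.

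The lowest ratios in the miR-128 mutant included genes not found there at all. Capn8, a calpain protease, had 0 UMIs in the miR-128 mutant, against 102 in 43 WT cells, an upper limit of 0.0598 for the ratio, and cyp4v7, a cytochrome P450, had 0 UMIs, against 88 in WT, an upper limit of 0.0695. B3gnt3.3, a glycosyltransferase gene, had 1 UMI, against 96 in 91 WT cells (0.0169). Their ratios in other ECs were 0.0134, 0.0110 and 0.0167, so these losses too were present outside tip cells. For the neuronal gene elavl3 (0.0177) 170 of the 276 WT UMIs lay in 1 cell. Capn8 and elavl3 were also among the lowest in csnk1a1 g3′UTR, at 0.0998 and 0.0922.

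In csnk1a1 g3′UTR the highest ratios of genes with a gene name rested on few cells. Krtt1c19e, a keratin, had 70 UMIs, against 0 in WT, with 51 in 1 cell, and csf3b, a granulocyte colony-stimulating factor gene, had 132 UMIs, against 1 in WT, with 125 in 1 cell. Hspb9, a small heat shock gene, and fmoda, a matrix proteoglycan, were the lowest of the genes with a gene name, with 2 UMIs each, against 121 in 24 WT cells and 64 in 10 WT cells. A gene with a clone name stood lower, with 0 UMIs in csnk1a1 g3′UTR, against 63 in 60 WT cells (upper limit of the ratio 0.153), and it was at 0 in other csnk1a1 g3′UTR ECs too. Among listed genes timp2b, an inhibitor of matrix proteases, had a ratio of 0.415 (0.392 to 0.439) from 1361 and 8343 UMIs, or 0.370 with median-of-ratios scaling, and 0.524 in other ECs. The BMP inhibitor smad6b had 2.69 (1.92 to 3.76), or 2.40 with that scaling. It was past 2-fold in jag1b g3′UTR too, at 2.90 from 76 and 72 UMIs, so smad6b was high in both libraries of version 6.0.1.

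In jag1b g3′UTR a gene with a locus name had 372 UMIs in 191 cells, against 30 in WT, a ratio of 34.0 (23.4 to 51.1) with 35.0 in other ECs. Rn7sk, a small nuclear RNA that holds back transcription elongation, was also spread over many cells. It had 632 CPM in jag1b g3′UTR (5458 UMIs in 941 cells) and 22.8 CPM in WT (540 UMIs), a ratio of 27.7 (25.4 to 30.3), or 21.5 with median-of-ratios scaling, with 21.2 in other ECs. The csnk1a1 g3′UTR library had 2546 rn7sk UMIs in 602 tip cells and the miR-128 mutant 522, so rn7sk was high in both libraries of version 6.0.1. Hsp90aa1.1, a heat-inducible chaperone, had a ratio of 38.9 (30.2 with that scaling), with 84 of its 142 UMIs in 1 cell, and the cardiac troponin tnnt2c had 31.1 (24.1), with 105 of its 272 UMIs in 1 cell. Emilin3a and chl1b were the lowest of the genes with a gene name, with 1 UMI each, while the clone-named gene at 0 in csnk1a1 g3′UTR was at 0 here too, against 63 UMIs in WT (upper limit 0.165). Of the 104 WT UMIs of emilin3a 93 lay in 1 cell.

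Among listed genes several stood past 2-fold of WT in jag1b g3′UTR tip cells, with ratios of similar size in other ECs. Kdrl had 5443 CPM in jag1b g3′UTR and 1870 CPM in WT (2.91, or 2.26 with median-of-ratios scaling), with 4347 CPM in csnk1a1 g3′UTR and 2064 CPM in the miR-128 mutant. Nrp1b had a ratio of 3.36 (3.05 to 3.71), the Notch ligand dlc 3.41 (3.04 to 3.82) and the ETS factor elk3 3.06 (2.76 to 3.39), or 2.61, 2.65 and 2.38 with that scaling. Dll4 stood at 1.85 (1.77 to 1.93), or 1.44, below the 2-fold line. The same ratios in other ECs were 3.16 for kdrl, 3.72 for nrp1b, 3.18 for dlc, 2.95 for elk3 and 1.78 for dll4.

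Genes of the Notch ligand and receptor list as a whole had no member past 2-fold in the miR-128 mutant (ratios of 0.785 to 1.34 over 11 genes) and none in csnk1a1 g3′UTR. In jag1b g3′UTR 2 of 11 were past 2-fold and higher, in a library where 12.3% of all 12134 compared genes were called higher. Dut, a nucleotide pool enzyme of S phase, was the only replication gene past 2-fold, at 0.405 (0.373 to 0.440) in jag1b g3′UTR, or 0.315 with median-of-ratios scaling. No mitosis gene was past 2-fold in any mutant. Of the tip cell genes named above, aqp1a.1 had ratios of 0.987, 1.25 and 1.05, fscn1a 1.06, 0.890 and 0.954, and flt1 0.953, 0.868 and 1.06 in the 3 mutants, these 3 genes within 2-fold of WT. Some other named genes went past 2-fold of WT in CPM. Meis2b had 27.2 CPM in csnk1a1 g3′UTR, against 12.9 CPM in WT, and mafa had 16.7 CPM in jag1b g3′UTR, against 4.14 CPM in WT. Hmox1a had 3.36, 2.58 and 3.47 CPM in the 3 mutants, against 8.14 CPM in WT.

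Tip cells of both g3′UTR libraries differed mutually in few high genes. Tyrp1b and dct, pigment enzymes, and mfap4, a macrophage gene, had 124, 74 and 273 UMIs in csnk1a1 g3′UTR and 0 in jag1b g3′UTR, with other ECs at 0.656, 1.14 and 1.07. These UMIs lay in 3, 2 and 5 csnk1a1 g3′UTR cells, with 65, 43 and 268 of them in 1 cell. The lowest were the muscle genes myl10, myl13, smyhc1 and pvalb4, at 0.0196, 0.0294, 0.0376 and 0.0337, for which 1 jag1b g3′UTR cell held most UMIs (all 165 of pvalb4). In venous genes csnk1a1 g3′UTR had 453 CPM of stab2 and jag1b g3′UTR 981 CPM, a ratio of 0.462 (0.445 to 0.480), or 0.531 with median-of-ratios scaling, with 0.692 in other ECs.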

How the data were processed

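The UMI counts of single cells, 1 gene-by-barcode matrix per library, were made by the authors with Cell Ranger (5.0.0 for the miR-128 mutant and WT, 6.0.1 for both g3′UTR libraries, per the file headers) on a zebrafish annotation with corrected 3′UTRs, and were deposited after cell calling. The genome build is not given in the sources used here. Each matrix held 36351 genes, and 216 symbols were shared by more than 1 identifier.

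Cells with at least 200 genes and at most 35000 UMIs were kept (42951 of 43568). UMIs were summed per library and class. Tip cells were tested against other ECs with the edgeR quasi-likelihood test (4.0.16, R 4.3.3) with TMM scaling, a filter on low counts, the library as block and Benjamini-Hochberg adjustment at 0.05, and DESeq2 (1.42.0) was an alternative. The library pairs the sums, since both classes came from the same sorted suspension, and deviations of both classes from their means correlated within libraries at 0.435 to 0.700 over genes. Libraries of 1 genotype each were the 4 replicates, from pooled embryos. Genotypes had 1 library each and no test. Ratios were given with exact binomial intervals (scipy 1.17.1), which cover counting error only. The scripts were tested on simulated data.

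Named genes were the 10 largest and 10 smallest fold changes among called genes of at least 20 CPM with the same direction in 4 of 4 libraries, the 5 highest and 5 lowest ratios called for each pair of libraries, and members of the gene lists. The members and the lists were chosen with earlier results of these data known. Alternatives were no block, other scalings, no filter, each library left out, thinning to 2500 UMIs, stricter cell limits, a marker minimum of 5 UMIs, leaving out cells with 3 or more UMIs of another cell type's markers, a minimum of 200 UMIs for genotype ratios and, chosen after seeing the data, leaving out the cell with most UMIs of each gene. No sequences are printed, and none was used.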

Additional observations from a re-analysis of the deposited data

Results flagged for a closer look

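For each listed gene the ratio of tip cells to other ECs was computed in each library, and the following genes had ratios on opposite sides of 1 in a mutant and in WT. With 1 library per genotype, the difference between genotypes was not tested. Kdrl stood at 0.955 in the miR-128 mutant, 0.881 in csnk1a1 g3′UTR and 0.938 in jag1b g3′UTR, and at 1.02 in WT. Apela, a ligand of the apelin receptors, stood at 0.203 in the miR-128 mutant and 0.568 in csnk1a1 g3′UTR, and at 1.62 in WT, where 47 of 122 UMIs lay in 1 cell.

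In the miR-128 mutant the heat shock genes hsp70.1, hsp70.2 and hsp70.3 stood at 0.424, 0.395 and 0.507, and in WT at 5.15, 3.26 and 2.96. Single WT tip cells held 75 of 273, 103 of 446 and 114 of 840 UMIs of these genes. In the miR-128 mutant id1, tgfb1a and atf3 stood at 0.890, 0.892 and 0.670, against 1.03, 1.103 and 1.27 in WT. Aldoab stood at 1.66 there, with 87 of its 165 UMIs in 1 cell, against 0.699 in WT. In csnk1a1 g3′UTR the Notch ligand gene dlb stood at 0.152, against 2.07 in WT, and egr1 at 0.709, against 1.41 in WT. Dlb did not pass the test against other ECs, and its counts were too low to be tested against arterial ECs. In jag1b g3′UTR clec14a stood at 1.05 and nkd1 at 1.16, against 0.937 and 0.851 in WT.

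Meis2b was the named gene with a library far from the others, at a log2 ratio of tip cells to other ECs of 4.62 in the miR-128 mutant, a gap of 0.938 of the range over the 4 libraries. Chance flags about 1 in 20 such groups of 4.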

How the results depend on the processing

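Counts of called genes moved by over 1.5 times under several alternatives. Without the library as replicate block, the pairing of classes by library was lost and 1166 genes were higher and 1313 lower, against arterial ECs 127 and 81, and against venous ECs 1516 and 1638. Of 257 single genes described, 88 lost their call without the block. The other 169 kept direction and status, and these include genes not called in the main test either, such as csnk1a1. Thinning to 2500 UMIs gave 2778 lower genes. Leaving out cells with 3 or more UMIs of other cell types' markers gave 1634 higher and 1572 lower, with fewer genes tested. It left 262 tip cells in the miR-128 mutant, 139 in csnk1a1 g3′UTR, 315 in jag1b g3′UTR and 320 in WT. Against arterial ECs, scaling by library totals gave 1461 higher and no filter 1718 higher. With each library left out in turn, the counts ran from 3050 to 3640 higher and 3080 to 3857 lower against other ECs, 249 to 896 and 313 to 828 against arterial ECs, and 2793 to 3185 and 3002 to 3146 against venous ECs. The lowest arterial counts came without WT, and the cause was not tested.

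After leaving out cells with other types' markers, the log2 fold change turned to 0.28 for myl13, 0.025 for timp2a, 0.023 for ccnd1, 0.21 for bmp16, 1.85 for aldoab, 0.65 for fosab, 0.053 for junbb, 0.074 for ier2a and 0.45 for ier2b, and thinning turned fosab to 0.21. The cause was not tested.

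The share of tip cells relative to WT was 0.877 in the miR-128 mutant, 0.718 in csnk1a1 g3′UTR and 0.682 in jag1b g3′UTR without thinning, and 0.806 in jag1b g3′UTR with at least 5 marker UMIs. With at least 200 UMIs, fewer genes were compared and the higher and lower genes numbered 55 and 88 for the miR-128 mutant, 119 and 49 for csnk1a1 g3′UTR, 766 and 67 for jag1b g3′UTR, and 30 and 169 for csnk1a1 over jag1b g3′UTR. Median-of-ratios scaling gave 229 lower for csnk1a1 g3′UTR, 635 and 590 for jag1b g3′UTR, and 183 and 234 for csnk1a1 over jag1b g3′UTR. Without the cell with most UMIs of each gene, the counts were 155 and 271, 342 and 175, 1426 and 207, and 91 and 481 in that order. Depth limits what can be said of genes with few UMIs, and single libraries leave genotype, preparation and processing version inseparable.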
